A study of Mus musculus with 10 samples.

Results

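The mouse mitochondrial genome encodes 37 genes, and all 37 were present among the 55367 genes of a bone marrow count table. They were taken by their symbols, which begin with mt-, and comprise 13 mRNAs, 22 tRNAs and 2 rRNAs. The rule uses no measured value.

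RNA was sequenced from mouse bone marrow cells, labelled BMMC, from 5 libraries of mice given 1% α-ketoglutarate (α-KG), a metabolite of the tricarboxylic acid cycle, in the drinking water and 5 libraries of mice given regular water. Both groups shared a column extraction with DNase and a removal of ribosomal RNA by RNase H. Strain, genotype, sex, age and treatment length were not given in the sources used here. No label ties a library to an animal, so p-values measure spread among libraries, numbered 1 to 5 in each group without any pairing.

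Mitochondrial DNA is a compact circle, both strands of which are copied into long RNAs. The tRNAs lie between most of the other genes and are cut out to free the mRNAs and rRNAs. The 13 mRNAs encode core subunits of respiratory complexes I, III and IV and of ATP synthase, and the rRNAs and tRNAs serve the organelle's own translation. In the marrow, maturing red cells are known to discard their mitochondria.

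Library totals were 14291364 to 21489380 counts in the α-KG group and 16938450 to 22490118 counts in the water group. Levels are given as CPM, counts per 1e+06 counts with library sizes corrected by TMM, which allows for differences in composition. TMM factors were 0.737 to 1.36 in α-KG and 0.827 to 1.44 in water libraries. All 10 markers of each of 8 cell type lists were detected in some library. Their summed levels included 36410 to 124963 CPM (α-KG) and 29660 to 74080 CPM (water) for erythroid cells, and 3097 to 6273 CPM (α-KG) and 3146 to 5842 CPM (water) for neutrophils. The signal recognition particle RNA genes Rn7s1 and Rn7s2 took a mean of 27.2% ± 2.50 of counts in α-KG and 16.4% ± 5.92 in water libraries (SD, n = 5 each).

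Per the GENCODE M21 annotation of GRCm38, the members lie on chromosome M with the last member ending at base 15422, 28 on the plus strand and 9 on the minus strand. The minus-strand genes are mt-Nd6 and 8 tRNAs. Of the members, 9 pairs overlap, the longest overlap being the 43 bases that mt-Atp8 (7766 to 7969) shares with mt-Atp6 (7927 to 8607). The sequence of mt-Atp8 is shown because reads in the shared stretch, in capitals, belong to both genes.
mt-Atp8: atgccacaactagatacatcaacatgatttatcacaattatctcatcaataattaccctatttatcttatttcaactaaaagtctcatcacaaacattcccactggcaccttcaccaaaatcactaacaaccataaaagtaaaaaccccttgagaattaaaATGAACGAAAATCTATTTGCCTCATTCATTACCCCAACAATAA

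A start codon of ATG stands at the head of 9 of the 13 mRNAs, while mt-Nd1 begins with GTG, mt-Nd2 with ATA, mt-Nd3 with ATT and mt-Nd5 with ATC. The genes mt-Co3, mt-Nd4 and mt-Cytb end without a full stop codon in the genome. Their last 30 bases are shown with the leftover base in capitals, since the stop codon of such mRNAs is known to be completed only by the poly(A) tail added after cutting.
mt-Co3: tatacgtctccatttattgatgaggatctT
mt-Nd4: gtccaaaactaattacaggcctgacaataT
mt-Cytb: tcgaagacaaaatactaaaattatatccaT

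All 13 mRNAs had a higher fitted level in α-KG libraries than in water libraries, but none passed the test at an adjusted p of 0.05. Their log2 fold changes ran from 0.66 (mt-Atp6) to 1.02 (mt-Nd3), with a median of 0.84, standard errors of 0.39 to 0.46 and adjusted p of 0.140 to 0.333 in edgeR's quasi-likelihood test. Over all 15126 genes tested the median was 0.02, and 8.82% had a log2 fold change of at least that of mt-Atp6. In bulk marrow, more cells of a type and more RNA per cell cannot be told apart.

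Of the 15 members tested (13 mRNAs and 2 rRNAs), 0 were called by edgeR in either direction, beside 2.73% of all genes, of which 2.39% were higher and 0.344% lower. At an unadjusted p under 0.05 the count was 3, namely mt-Nd3 (0.0291), mt-Nd4l (0.0340) and mt-Nd6 (0.0462), all higher, beside 16.3% of all genes. DESeq2 called 0 members, beside 6.07% of all genes called higher, and limma voom called 0, beside 1.49%. limma voom with quality weights called 1 higher, beside 9.26% of all genes. All 15 log2 fold changes were above 0, beside 51.7% of all genes. In 0 of 15 members did the groups of libraries not overlap, beside 5.65% of all genes. The members come from shared precursors and the same libraries, so these counts do not measure 15 separate responses.

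**Figure D1:**
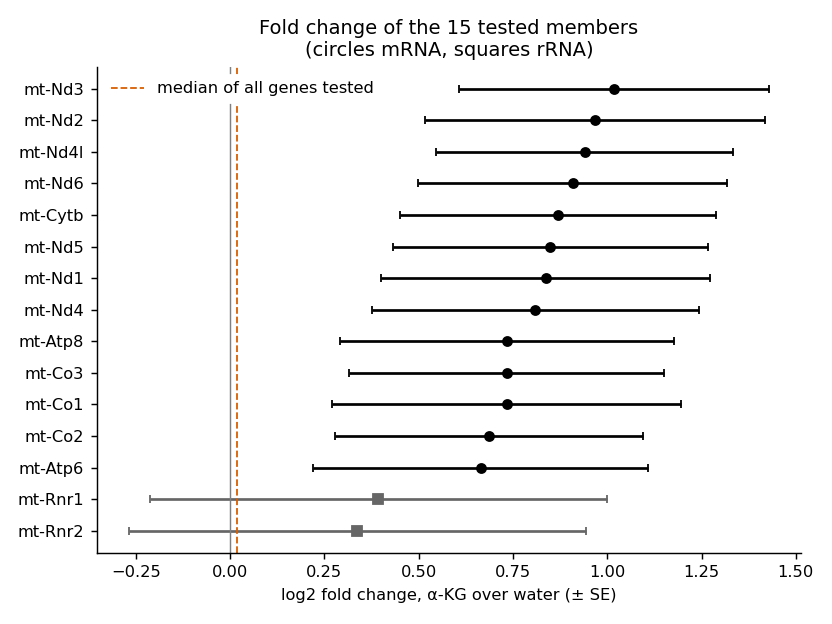
Log2 fold change of α-KG over water for each of the 15 tested members, with the standard error from edgeR; circles are mRNAs, squares are rRNAs and the dashed line is the median of all genes tested. The mRNAs lie between 0.66 and 1.02, above the rRNAs at 0.34 and 0.39.

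The mitochondrial share of all counts was 2.23%, 2.37%, 2.91%, 4.39% and 1.33% in α-KG libraries 1 to 5, against 1.12%, 1.46%, 2.53%, 1.89% and 2.60% in water libraries 1 to 5. The groups overlapped, with means of 2.65% ± 1.13 in α-KG and 1.92% ± 0.648 in water (SD, n = 5 each). The log2 ratio of these means was 0.46, and 0.20 without library α-KG 4. At these depths the 95% Wilson interval of a library's share was at most 0.0106 points to either side, which covers counting error only and is far narrower than the spread between libraries. Counts assigned to nearly identical nuclear copies, described further on, are not in these shares. They made up 0.224% to 0.755% of a library's counts.

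The most abundant mRNA was mt-Co1 (5328 to 6872), the catalytic subunit of complex IV. It had 5842, 9552, 13746, 20627 and 6723 CPM in α-KG libraries 1 to 5, against 2903, 5587, 7064, 6853 and 11584 CPM in water libraries 1 to 5. Library α-KG 4 was the highest and water 1 the lowest, and water 5 exceeded α-KG libraries 1, 2 and 5. Its log2 fold change was 0.73 ± 0.46 (SE), with an adjusted p of 0.305 in edgeR.

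The libraries ranked alike across the 13 mRNAs. Library α-KG 4 was the highest of 10, α-KG 3 was second among the α-KG libraries, water 1 was the lowest of 10, water 2 was second lowest and water 5 the highest of the water libraries in all 13. In each of them water 5 was above both α-KG 1 and α-KG 5. The highest library exceeded the lowest 6.29-fold to 9.93-fold. These ranks and folds are on CPM, where a library's TMM factor scales all 13 mRNAs alike. As a share of all counts without TMM, the summed mRNAs differed 3.72-fold between the highest and lowest library, against 7.26-fold in CPM. On that share water 3 (2.24%) was above water 5 (2.20%). Library make-up also differed at the ends of the CPM ranking. Nuclear protein-coding genes took 34.2% of counts in α-KG 4, 40.0% in water 5 and 71.2% in water 1. The gene CT010467.1 took 21.1%, 19.4% and 3.67% in the same libraries. Other ranks did not all follow, as CT010467.1 took 7.19% in α-KG 3 and 13.7% in water 2. The part of library make-up in the ranking was not tested. The summed mRNA level was 14433, 22033, 31194, 50944 and 15628 CPM in α-KG libraries 1 to 5, against 7019, 12496, 17067, 15486 and 26614 CPM in water libraries 1 to 5. The groups overlapped for this sum too. Without library α-KG 4 the median log2 fold change of the mRNAs was 0.46, and without water 5 it was 1.10.

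**Figure D2:**
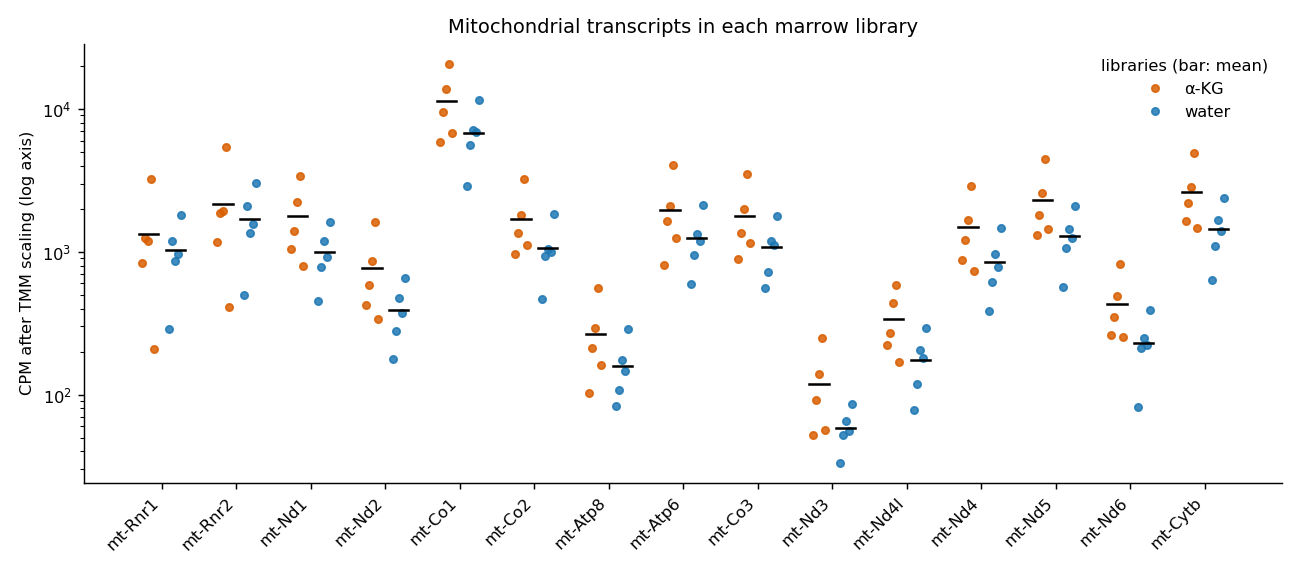
CPM after TMM scaling on a log axis for each tested member, with α-KG libraries in orange left of water libraries in blue and the group mean as a bar. In every mRNA α-KG 4 is the topmost point and water 1 the lowest, and the groups overlap.

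Complex I, the NADH dehydrogenase that feeds electrons into the chain, has 7 mitochondrial subunits. The highest log2 fold change in edgeR was that of mt-Nd3 (9459 to 9806), which had 52.0, 91.5, 140, 251 and 56.5 CPM in α-KG libraries 1 to 5, against 33.3, 51.8, 65.4, 55.4 and 85.6 CPM in water libraries 1 to 5. Its α-KG libraries 1 and 5 lay within the range of the water libraries, and its log2 fold change was 1.02 ± 0.41 (adjusted p = 0.140, edgeR). With its nuclear copy added it was 0.962, below 0.968 for mt-Nd2. limma voom with quality weights, which weighs libraries by their fit, put it at 1.24 (adjusted p = 0.0404). It was the one member called by any of the tools run, in a fit that called 9.26% of all genes higher.

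The gene mt-Nd6 (13552 to 14070) lies on the strand opposite to the other mRNAs and is read from the other promoter. It had 262, 349, 487, 817 and 252 CPM in α-KG libraries 1 to 5, against 82.3, 210, 249, 222 and 392 CPM in water libraries 1 to 5. All 5 α-KG libraries exceeded 4 of the water libraries, and water 5 lay among them. The log2 fold change was 0.91 ± 0.41 (adjusted p = 0.174, edgeR). How strand was treated in counting was not given in the sources used here, and 14 bases of mt-Nd6 overlap mt-Nd5 on the other strand.

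For the other complex I mRNAs, mt-Nd4l averaged 336 ± 171 CPM in α-KG and 175 ± 82.7 CPM in water (log2 fold change 0.94 ± 0.39, adjusted p = 0.150), and mt-Nd2 averaged 767 ± 519 CPM in α-KG and 392 ± 185 CPM in water (0.97 ± 0.45, adjusted p = 0.184). The gene mt-Nd5 averaged 2314 ± 1295 CPM in α-KG and 1285 ± 564 CPM in water (0.85 ± 0.42, adjusted p = 0.202). Differences of this size did not exceed the spread between libraries. The gene mt-Nd1 averaged 1774 ± 1063 CPM in α-KG and 993 ± 437 CPM in water (0.84 ± 0.44, adjusted p = 0.224). The gene mt-Nd4 averaged 1480 ± 874 CPM in α-KG and 844 ± 413 CPM in water (0.81 ± 0.43, adjusted p = 0.234). All these are from edgeR with SD over 5 libraries.

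The other complexes had the same direction. The single complex III mRNA, mt-Cytb (cytochrome b), averaged 2618 ± 1409 CPM in α-KG and 1434 ± 653 CPM in water (0.87 ± 0.42, adjusted p = 0.194). The complex IV subunits mt-Co2 and mt-Co3 had log2 fold changes of 0.69 ± 0.41 and 0.73 ± 0.42, with adjusted p of 0.280 and 0.262, on means of 1698 ± 920 and 1780 ± 1050 CPM in α-KG, against 1055 ± 493 and 1071 ± 471 CPM in water. None passed the test in edgeR.

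Of the ATP synthase subunits, mt-Atp6 forms part of the proton channel and had the smallest difference among mRNAs. It had 813, 1651, 2094, 4026 and 1240 CPM in α-KG libraries 1 to 5, against 594, 944, 1332, 1192 and 2135 CPM in water libraries 1 to 5. The groups overlapped widely, with a log2 fold change of 0.66 ± 0.44 (adjusted p = 0.333, edgeR). The short mt-Atp8 averaged 265 ± 177 CPM in α-KG and 159 ± 79.1 CPM in water (0.73 ± 0.44, adjusted p = 0.287).

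The mRNAs varied in level far more than in their proportions to each other. Over all 10 libraries the coefficient of variation of CPM was 56.2% to 73.1%, while that of each mRNA's share of the mitochondrial mRNA counts was 3.73% to 14.1%. Complex I took 26.7% ± 1.81 of mRNA counts in α-KG and 25.3% ± 0.941 in water, complex III 9.90% ± 0.890 in α-KG and 9.11% ± 0.388 in water. Complex IV took 55.3% ± 1.79 in α-KG and 56.7% ± 1.44 in water, and ATP synthase 8.08% ± 1.11 in α-KG and 8.93% ± 0.473 in water (SD, n = 5 each). In 0 of 13 mRNAs were the groups' shares apart. All these shares leave out counts assigned to the nuclear copies described further on, so they depend on how reads were split. Fitted relative to the mRNA total, the mRNAs had log2 fold changes of -0.15 to 0.21 with adjusted p of 0.791 to 0.978 in edgeR. That scale holds the sum of the same mRNAs level, so values near 0 are largely set by it. These p-values therefore do not measure whether the proportions changed.

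**Figure D3:**
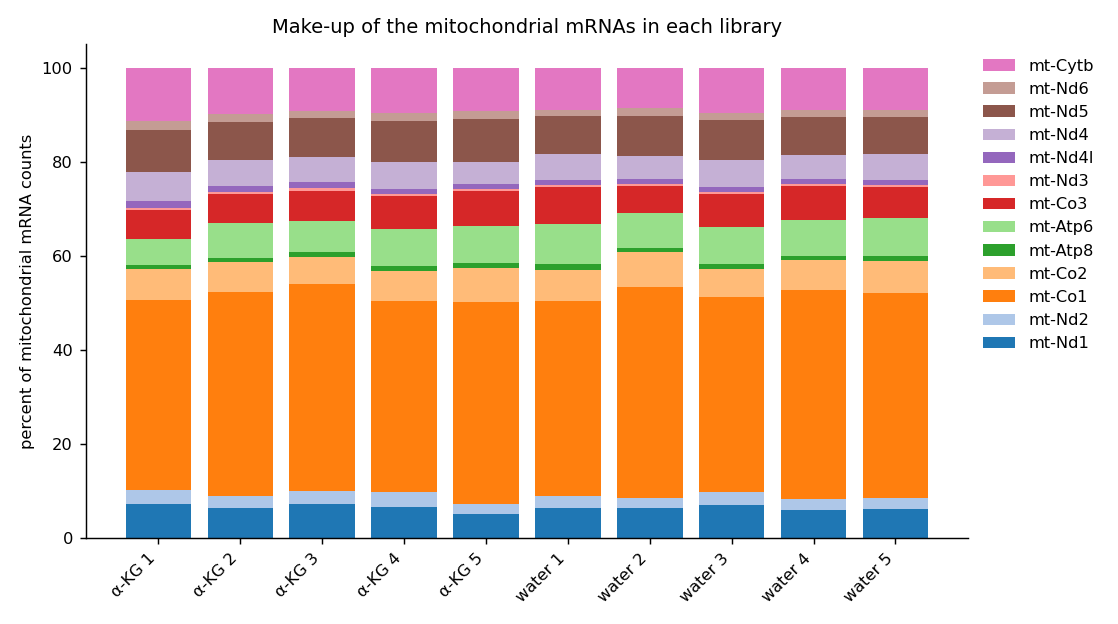
Percent of mitochondrial mRNA counts taken by each of the 13 mRNAs in each library, α-KG libraries left of water libraries. The bands keep similar widths in all 10 libraries, and mt-Co1 is the widest. Counts assigned to nuclear copies are left out.

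Per kilobase of gene, mt-Co1 was highest, at 7313 CPM per kb in α-KG and 4400 CPM per kb in water, and mt-Nd3 lowest, at 339 CPM per kb in α-KG and 168 CPM per kb in water. This held in 10 of 10 libraries, where the ratio of their levels per kb was 18.5 to 30.5. The order below mt-Co1 was mt-Atp6, mt-Co2, mt-Cytb, mt-Co3, mt-Nd1, mt-Rnr1, mt-Rnr2, mt-Atp8, mt-Nd5, mt-Nd4l, mt-Nd4, mt-Nd6 and mt-Nd2 in α-KG libraries. Among mRNAs ordered over all libraries, neighbours kept their order in 10 of 10 libraries for 5 of 12 pairs, while mt-Nd4l and mt-Nd4 did so in 5, mt-Co3 and mt-Cytb in 7, and the other pairs in 8 or 9. With the nuclear copies described further on added, mt-Co2 stood second at 5130 CPM per kb in α-KG and 3119 CPM per kb in water.

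The rRNAs did not share the libraries' ranking with the mRNAs. The small-subunit rRNA mt-Rnr1 (70 to 1024) had 832, 1248, 1181, 3229 and 209 CPM in α-KG libraries 1 to 5, against 289, 1185, 864, 970 and 1796 CPM in water libraries 1 to 5. The large-subunit rRNA mt-Rnr2 (1094 to 2675) had 1162, 1873, 1922, 5417 and 408 CPM in α-KG libraries 1 to 5, against 496, 2103, 1363, 1553 and 3019 CPM in water libraries 1 to 5. Library α-KG 4 was the highest for both, while the lowest was α-KG 5, not water 1. Log2 fold changes were 0.39 ± 0.61 (adjusted p = 0.686) and 0.34 ± 0.61 (adjusted p = 0.733) in edgeR, and without α-KG 4 they were -0.24 and -0.35.

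For each 100 mRNA counts there were 13.8, 14.2, 9.95, 17.0 and 3.94 rRNA counts in α-KG libraries 1 to 5, against 11.2, 26.3, 13.05, 16.3 and 18.1 in water libraries 1 to 5. The groups overlapped, with α-KG 5 low and water 2 high. The count of mt-Rnr2 was 1.396 to 1.95 times that of mt-Rnr1 in every library. Ribosomal RNA was removed before sequencing, so these are the amounts left after that step. Whether it targeted the mitochondrial rRNAs was not given in the sources used here, and its part in the spread was not tested.

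**Figure D4:**
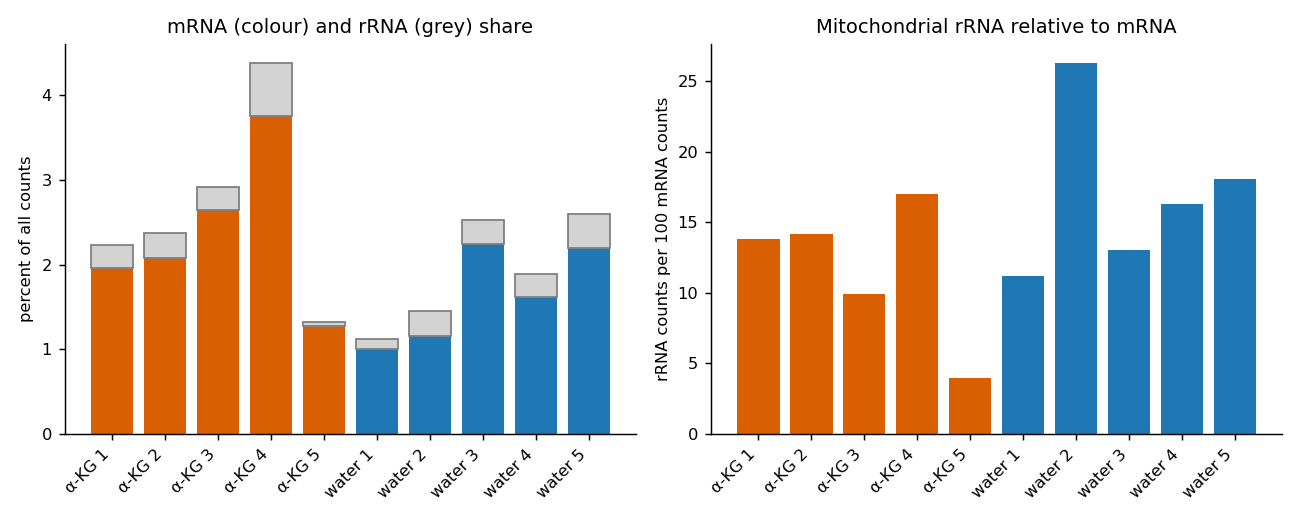
Left, percent of all counts from mitochondrial mRNAs (colour) and rRNAs (grey) in each library. Right, rRNA counts per 100 mRNA counts; α-KG 5 is lowest at 3.94 and water 2 highest at 26.3.

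The tRNAs were almost without counts. Of 22 tRNA genes, 59 to 75 bases long, 19 had no count in any library, and none could be tested. mt-Ti had 1 count each in α-KG 4 and α-KG 5, mt-Tm 2 in α-KG 3 and mt-Tp 1 in α-KG 1, a total of 5 counts in α-KG libraries and 0 in water libraries. A count of 0 allows a level of up to 3 counts, or 0.133 to 0.210 CPM without TMM scaling, so no fold is given. The sequences of the 3 tRNAs that were seen are shown with their anticodons in capitals.
mt-Ti: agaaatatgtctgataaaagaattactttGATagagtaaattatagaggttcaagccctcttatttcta
mt-Tm: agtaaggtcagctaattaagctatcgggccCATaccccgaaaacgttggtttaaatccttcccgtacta
mt-Tp: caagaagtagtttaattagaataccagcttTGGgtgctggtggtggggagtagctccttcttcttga

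Nearly identical nuclear copies shared the counts of 7 mRNAs. Of 8 such genes (at least 97% identity over at least 200 bases), 7 lie on the minus strand of chromosome 1 between 24611535 and 24616197 and carry pieces of mt-Co1, mt-Co2, mt-Atp6, mt-Co3, mt-Nd3, mt-Nd4l and mt-Nd4 in the order of the mitochondrial genome. Each of these 7 members had counts that were not whole numbers, mt-Nd3 in 9 of 10 libraries and the others in all 10, while the counts of the other 30 members were whole. The start of mt-Nd3 and of its copy Gm28438 is shown to illustrate how little separates them; the difference in this window is T3C, counted from 1 at the first base of the gene, with the mitochondrial base first.
mt-Nd3: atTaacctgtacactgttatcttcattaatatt
Gm28438: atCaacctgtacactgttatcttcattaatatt

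Of the counts for mt-Co2 and its copy Gm28661, 51.0% ± 3.12 went to the copy in α-KG and 50.7% ± 1.13 in water. The copy of mt-Atp6, Gm10925, took 40.4% ± 4.49 in α-KG and 41.5% ± 1.10 in water, and that of mt-Co3, Gm28437, took 36.2% ± 0.660 in α-KG and 37.1% ± 3.59 in water. Copies of mt-Nd3, mt-Nd4, mt-Nd4l and mt-Co1 took smaller parts, 16.1% ± 6.73, 16.1% ± 2.50, 10.5% ± 2.91 and 5.79% ± 2.08 in α-KG, against 17.2% ± 3.60, 11.9% ± 5.01, 9.46% ± 1.82 and 7.53% ± 1.69 in water. The groups overlapped for each. The copies themselves had log2 fold changes of 0.28 (Gm29216, adjusted p = 0.694) to 1.38 (Gm28439, adjusted p = 0.0896) in edgeR, and none was called. The rule that split reads between copies was not given in the sources used here, so the level of these 7 mRNAs is uncertain. With the copies added to their genes, the mRNA log2 fold changes were 0.66 to 0.97 and the smallest adjusted p was 0.148.

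**Figure D5:**
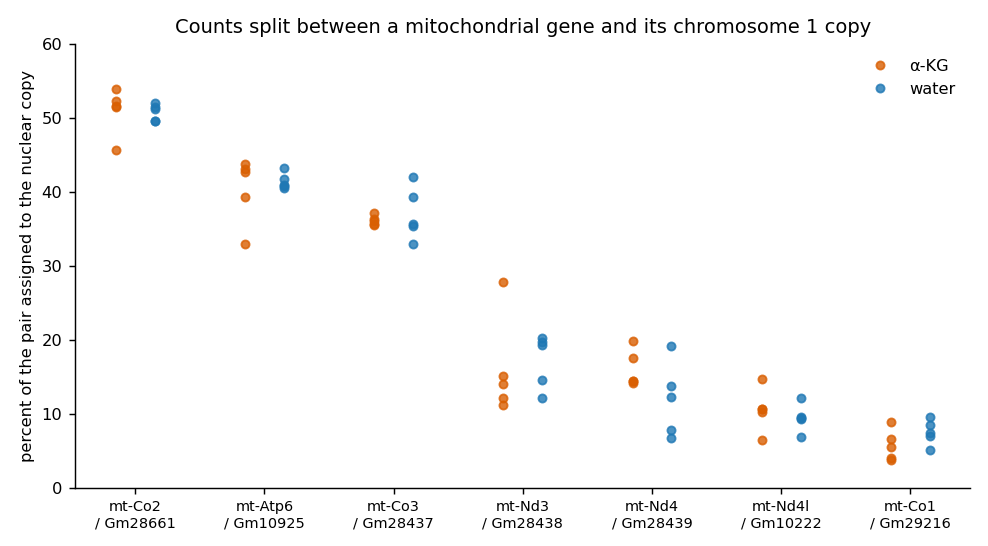
Percent of the counts of each mitochondrial gene and its chromosome 1 copy that were assigned to the copy, with α-KG libraries left of water libraries. The values of the groups overlap for every pair.

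Nuclear genes that maintain, copy and process mitochondrial RNA were examined as 67 genes in 5 lists, of which 64 were tested. Of these, 1 rose and 0 fell in edgeR, beside 2.39% and 0.344% of all genes, and 7 had an unadjusted p under 0.05, beside 27.8%. DESeq2 called 1 higher, beside 6.07% of all genes, and 3 lower, beside 4.31%. Their median log2 fold change was -0.00475, beside 0.02 over all genes.

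The gene that rose was Fastkd1, a member of the FASTK family of mitochondrial RNA-binding proteins. It had 3.27, 3.01, 3.72, 3.33 and 2.66 CPM in α-KG libraries 1 to 5, against 1.11, 1.59, 2.38, 1.59 and 2.002 CPM in water libraries 1 to 5. The groups did not overlap, and the log2 fold change was 0.89 ± 0.22 (adjusted p = 0.0492, edgeR). The call was lost under 5 of the scalings and filters and in 8 of 10 analyses that left out 1 library. Among the latter, those without water 1, water 2, water 4 or α-KG 4 called 0 of all genes.

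The transcription factors of the organelle did not pass the test. Tfam, which packages the DNA and starts transcription, had a log2 fold change of -0.20 (adjusted p = 0.394), the mitochondrial RNA polymerase Polrmt 0.36 (adjusted p = 0.251) and Tfb2m, its partner at promoters, -0.36 (adjusted p = 0.143, unadjusted p = 0.0302), all by edgeR. Lrpprc and Slirp, which stabilise mitochondrial mRNAs, had -0.25 (adjusted p = 0.257) and -0.37 (adjusted p = 0.437), and the tRNA-cutting enzyme Elac2 0.21 (adjusted p = 0.381). None of these passed in edgeR. Ppargc1a, a coactivator of mitochondrial biogenesis, was too low to test, at 0.424 ± 0.268 CPM in α-KG and 0.235 ± 0.190 CPM in water.

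A further 3 nuclear genes came near the threshold in edgeR. Polg2, the accessory subunit of the mitochondrial DNA polymerase, had a log2 fold change of -0.79 ± 0.22 (adjusted p = 0.0637), the tRNA-modifying Osgepl1 -0.83 ± 0.21 (adjusted p = 0.0564) and the regulator Nrf1 -0.45 ± 0.15 (adjusted p = 0.0943). Without library water 1 that of Polg2 was -0.52 (adjusted p = 0.123). DESeq2 called these 3 lower, with log2 fold changes of -0.82, -0.86 and -0.48. The other 10 genes taken as the 3 smallest p of their lists ran from -0.48 (Mterf4) to 0.77 (Mterf2), with adjusted p of 0.140 to 0.280 in edgeR.

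Some markers of other cells differed between the groups, mostly those of monocytes and macrophages. Summed monocyte and macrophage markers reached 221 to 430 CPM in α-KG and 135 to 207 CPM in water, with 8 of 10 called higher in edgeR, beside 2.39% of all genes. The groups were apart, and α-KG 4 was the highest. Summed T and NK cell markers reached 22.3 to 43.1 CPM in α-KG and 17.6 to 27.4 CPM in water, with 2 of 10 called higher, beside the same 2.39%. Summed bone and stromal markers reached 105 to 183 CPM in α-KG and 68.1 to 244 CPM in water. Of these, 3 of 8 tested were called higher (Cxcl12, Kitl and Apoe), beside the same 2.39%. Col1a1 and Col1a2 went the other way, with log2 fold changes of -1.64 (adjusted p = 0.0577) and -1.06 (adjusted p = 0.116) in edgeR. None of the other 5 lists held a called marker, though they were not all even across libraries. Summed B cell markers were 500 CPM in α-KG 1, against 93.3 to 192 CPM in α-KG 2 to 5 and 108 to 189 CPM in water. The part of these cells in the mitochondrial values was not tested.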

How the data were processed

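The authors extracted total RNA with a column kit and DNase, removed ribosomal RNA and sequenced on an Illumina instrument, per the labels. The deposited table holds expected counts (estimated counts, 10.3% of values not whole) per gene; the submitters' processing notes name bcl2fastq, DRAGEN and GRCm38, without versions or roles. The quantifier, annotation release and use of strand were not given in the sources used here. Expected counts were rounded, filtered by filterByExpr (minimum count 10, minimum total 15; 15126 genes kept), scaled by TMM and tested, α-KG against water, by edgeR 4.0.16 (quasi-likelihood, R 4.3.3). P-values were adjusted by Benjamini-Hochberg, with 0.05 as threshold. Standard errors come from the fold change and its F statistic (|log2 fold change| / √F). Limma 3.58.1, DESeq2 1.42.0, other scalings and filters, and each library left out in turn were alternatives. Of these steps, only the edgeR fit was tested on simulated counts, in which genes varied independently of each other. The simulation therefore does not cover the other tools or the shared ranking of libraries across the mitochondrial mRNAs. Libraries of a group differed beyond counting error (pairwise chi-square over its degrees of freedom, 30.2 to 388).

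Coordinates, overlaps and sequences came from GENCODE M21 on GRCm38, whose transcripts were searched against each other with BLAST 2.17.0 for nuclear copies. The members, the gene lists and the tests were chosen with earlier results of these data known. By rule, per-library values are given for both rRNAs, mt-Nd6, the most abundant mRNA, and the mRNAs of highest and lowest log2 fold change; other mRNAs are given by mean and SD and tRNAs by counts. Of the nuclear list genes, 7 fixed ones and the 3 with the smallest p of each list are given.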

Additional observations from a re-analysis of the deposited data

Results flagged for a closer look

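Of 120 groups of 5 libraries examined, 4 held a library whose gap to the nearest other exceeded Dixon's 95% critical ratio of 0.71; chance alone flags about 1 in 20 groups. The share of mitochondrial mRNA counts from mt-Nd6 was 1.81% in α-KG 1, against 1.56% to 1.61% in α-KG 2 to 5. The copy Gm28438 took 27.8% of the counts of the mt-Nd3 pair in α-KG 1, against 11.2% to 15.1% in α-KG 2 to 5. Polg2 had 25.2 CPM in water 1, against 10.3 to 14.2 CPM in the other water libraries. Osgepl1 had 6.43 CPM in water 5, against 3.52 to 4.27 CPM in the other water libraries. The cause was not tested in any of these.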

How the results depend on the processing

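No paired analysis was possible because no label pairs the libraries, whose numbers follow their accession order. Members called higher numbered 1 with limma voom with quality weights and 0 in all other analyses, leave-one-out included (0 to 0). Without water 1, water 2, water 4 or α-KG 4 the fit called 0 of all genes, so these fits are not informative about members. With total counts in place of TMM the median of all genes was -0.22 and that of the mRNAs 0.57, or 0.79 above it. Relative to the mitochondrial mRNA total, log2 fold changes were reversed for mt-Co1 (-0.026), mt-Co2 (-0.062), mt-Atp8 (-0.10), mt-Atp6 (-0.15), mt-Co3 (-0.069), mt-Rnr1 (-0.47) and mt-Rnr2 (-0.57), a scale that holds the mRNA total level; leaving out 1 library gave -0.24 to 0.70 for mt-Rnr1 and -0.35 to 0.64 for mt-Rnr2, both below 0 without α-KG 4 alone. Elac2 was reversed by total counts (-0.034).

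Nuclear list genes called higher were 0 with median-of-ratios factors, total counts, no filter, scaling without Rn7s1, Rn7s2 and CT010467.1, and scaling by nuclear protein-coding genes, an alternative chosen after seeing the data, as was adding the nuclear copies. Those called lower were 2 with total counts, no filter and voom quality weights and 3 with DESeq2. Leaving out libraries gave 0 to 1 higher and 0 to 3 lower. Over all genes, calls higher were 117 with total counts, 969 with DESeq2, 225 with voom and 1401 with quality weights, beside 361; calls lower were 1042 with total counts, 100 with upper quartile, 154 with no filter, 688 with DESeq2 and 989 with quality weights, beside 52. Leaving out 1 library gave 0 to 1610 higher and 0 to 1073 lower, so the count of genes called rests on single libraries. The difference of the mt-Co1 share, α-KG minus water, was -0.77 points, 1.10 with rRNA in the total and -1.21 to -0.32 without 1 library.

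Depth does not limit the mRNAs, whose lowest count in a library was 785; the spread between libraries does. For the tRNAs, a count of 0 leaves levels of up to 3 counts possible.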

Other observations

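The mitochondrial mRNAs were set beside 84 nuclear genes for subunits of respiratory complexes I to IV and ATP synthase. These were chosen and grouped by symbol after the mitochondrial values had been seen. They include 4 genes of complex II, to which none of the 13 mitochondrial mRNAs belongs. Of 78 tested, 0 were called by edgeR, beside 2.73% of all genes, and 9 had an unadjusted p under 0.05, beside 27.8%. Their log2 fold changes were above 0 for 17 of 78, beside 51.7% of all genes. The median was -0.18, beside 0.02 over all genes. By complex the medians were -0.17 over 37 genes of complex I, -0.029 over 4 of complex II, -0.20 over 9 of complex III, -0.24 over 13 of complex IV and -0.12 over 15 of ATP synthase. The summed level was 1582 ± 171 CPM in α-KG and 1797 ± 259 CPM in water (SD, n = 5 each). Mitochondrial mRNA per nuclear subunit CPM was 10.8, 12.2, 20.1, 32.4 and 9.49 in α-KG libraries 1 to 5, against 3.68, 7.53, 11.7, 8.53 and 12.4 in water libraries 1 to 5. The groups overlapped, with α-KG 4 the highest and water 1 the lowest, and this ratio was not tested.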
